A study of Mus musculus with 4 samples.

Results

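Oxidative phosphorylation makes ATP at the inner mitochondrial membrane, and its RNAs come from both the nuclear and the mitochondrial genome. The genes described here were those with symbols starting with Nduf, Uqcr, Atp5, Cox and a digit, mt-Nd, mt-Co, mt-Cytb or mt-Atp, with Sdha, Sdhb, Sdhc and Sdhd, kept where a count of at least 10 was reached in at least 2 libraries. Of 119 genes with such symbols 111 were kept, out of 17991 genes with any count. They were 98 nuclear genes and the 13 protein-coding genes of the mitochondrial genome. The nuclear genes held 77 subunits of complexes I to V, 19 assembly or other factors and 2 pseudogenes. Ndufa4l2, a hypoxia-linked relative of Ndufa4, lay just inside the limit at 10 and 6 counts for WT, 5 and 12 for KO, and it was the member too low to be tested. Cox6b2, the testis form of a complex IV subunit, lay just outside it with counts of 7, 2, 6 and 7. Cox4i2, Cox7b2, Cox8b and Cox8c, tissue or hypoxia forms of complex IV subunits, were at 0 in every library, which allows up to 3 counts in each.

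The 4 libraries were total RNA of cultured primary macrophages, 2 per genotype. WT were G3bp1 f/f mice, which carry a floxed but intact G3bp1 gene, and KO were G3bp1mac-/- mice, the same floxed mice crossed to Lyz2-Cre. Lyz2 is active across the myeloid lineage, so the deletion is not restricted to macrophages in the animal, and every group carried the floxed allele. Per the study's text these were bone marrow-derived macrophages (BMDMs) taken to compare transcriptomes after loss of G3BP1, the scaffold of stress granules. The study's methods give an age and sex for purchased inbred mice, but none for the floxed and Cre lines used here. No source says whether libraries 1 and 2 came from separate mice, so the p-values measure the spread between these samples only, which may be technical.

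Library totals ran from 16724241 to 19747909 counts. The targeted gene, G3bp1, was counted 1691 and 2875 times in WT libraries and 1307 and 2296 times in KO libraries, which overlapped. Its log2 fold change was -0.61 ± 0.40 (SE), with an adjusted p of 0.904 by edgeR's quasi-likelihood test. Within each replicate number it was lower in KO, by a log2 ratio of -0.57 in number 1 and -0.63 in number 2. The study reports efficient loss of G3BP1 from macrophages of these mice, measured as mRNA and as protein in BMDMs. Counts cover the whole gene, so loss of the floxed part was not seen separately. The replicate numbers stood apart more than the genotypes did: the first principal component took 55.9% of the variance and held number 1 of both genotypes at -44.3 and -44.6 and number 2 at 53.8 and 35. The macrophage markers Cd68 and Lyz2 were high in every library, with Cd68 at 52573 to 57779 counts, while others were less even. Between replicate numbers, Cd14 had 125 and 682 CPM in WT and 106 and 532 CPM in KO, and Fcgr1 55.6 and 21.2 CPM in WT and 46.6 and 17.7 CPM in KO. C1qa was lower in both KO libraries, with 224 and 217 CPM in WT, against 138 and 169 in KO. Itgam, listed under 2 identifiers, went opposite ways, with log2 fold changes of 0.82 under ENSMUSG00000030786 (181 and 124 CPM for WT, 310.2 and 227 for KO) and -1.11 under ENSMUSG00000108596 (108 and 261 CPM for WT, 52.6 and 118 for KO, lower within each number). All 6 stromal markers listed (Col1a1, Col1a2, Col3a1, Dcn, Pdgfra and Acta2) had higher values in both KO libraries, and their CPM (counts relative to the library total after TMM scaling) summed to 78.1 and 89.7 in WT, against 343 and 318 in KO. The neutrophil gene S100a9 was counted 91 and 82 times in WT libraries and 2 and 1 times in KO libraries. S100a8, another neutrophil gene, was lower too but stayed well counted, going from 235 and 242 with WT to 133 and 209 with KO. Its log2 fold change was -0.74, against -5.98 for S100a9, so S100a8 did not share the near loss of S100a9. Elane and Mpo, which mark immature neutrophils, were at 0 in every library. The part of these other cells in the results that follow was not tested, and in bulk RNA fewer cells of a type and less RNA per cell cannot be told apart.

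Electrons from NADH enter the chain at complex I and those from succinate at complex II, then pass through complex III and cytochrome c to oxygen at complex IV. Complexes I, III and IV pump protons, and complex V lets them back to make ATP. Complex II is built from nuclear genes only, whereas the other complexes join nuclear subunits with a few hydrophobic ones translated inside the mitochondrion. In macrophages the balance between this pathway and glycolysis shifts with activation.

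Nuclear members were mostly lower in KO, and mitochondrial-genome members were mostly slightly higher. The edgeR test was made across 12418 genes, and a gene was called where its adjusted p (Benjamini-Hochberg) was under 0.05 and its log2 fold change was beyond 1 in either direction. Among 110 tested members 0 were called, as among all genes tested (0%). The lowest adjusted p of a member was 0.452, for Uqcrq. At an unadjusted p under 0.05 there were 6 members, 5 lower and 1 higher, where 6.63% of all genes tested passed (1.99% lower and 4.64% higher). DESeq2's Wald test called 181 genes and edgeR's exact test 174, with 0 members in either. The log2 fold change was below 0 for 87 of 97 nuclear members, against 45.4% of all genes tested, and it was above 0 for 10 of 13 mitochondrial members. The median log2 fold change was -0.52 for nuclear members, 0.17 for mitochondrial members and 0.04 for all genes tested. Scaled by library totals alone, these 3 medians were -0.38, 0.33 and 0.20. Both KO libraries lay below both WT libraries for 64 of 97 nuclear members, where 16.9% of all genes did so, and above them for 7 of 13 mitochondrial members, where 20.0% of all genes did so.

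**Figure D1:**
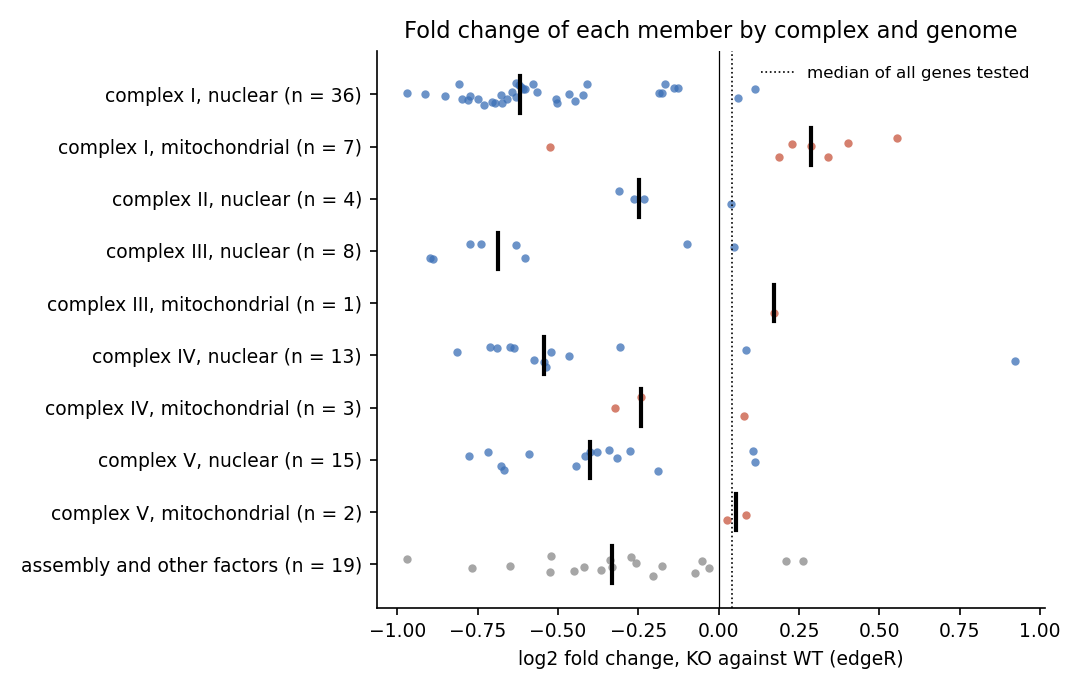
Log2 fold change of each tested subunit and factor, KO against WT, on the horizontal axis, by complex and genome (blue nuclear, red mitochondrial, grey factors). Black bars are medians and the dotted line is the median of all genes tested, 0.04. Nuclear subunits of every complex have medians from -0.69 to -0.25, and the mitochondrial subunits of complex I have a median of 0.29.

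The lower nuclear values came with a wide spread between the WT libraries. WT replicate 1 was the highest of the 4 libraries for 66 of 76 nuclear subunits, where it was so for 28.3% of all genes tested. KO replicate 1 was the lowest for 63 of them, against 24.9% of all genes. Within number 1 the median log2 ratio of KO to WT over nuclear subunits was -0.97, and within number 2 it was -0.11. Both numbers gave lower KO values for 55 of 76 nuclear subunits, where 29.0% of all genes were lower in both. Without WT replicate 1 the median over nuclear members was -0.23, and without WT replicate 2 it was -0.80. By complex, the medians of nuclear subunits given below went to -0.24 (I), -0.096 (II), -0.34 (III), -0.25 (IV) and -0.16 (V) without WT replicate 1, and to -0.94, -0.40, -0.89, -0.80 and -0.61 without WT replicate 2. For mitochondrial members number 1 gave a median log2 ratio of 0.22 and number 2 one of 0.06, and 9 of 13 were higher in KO in both numbers, where 36.0% of all genes were. WT replicate 1 was the lowest library for 9 of these 13, against 34.6% of all genes. The labels do not say what the numbers mark.

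**Figure D2:**
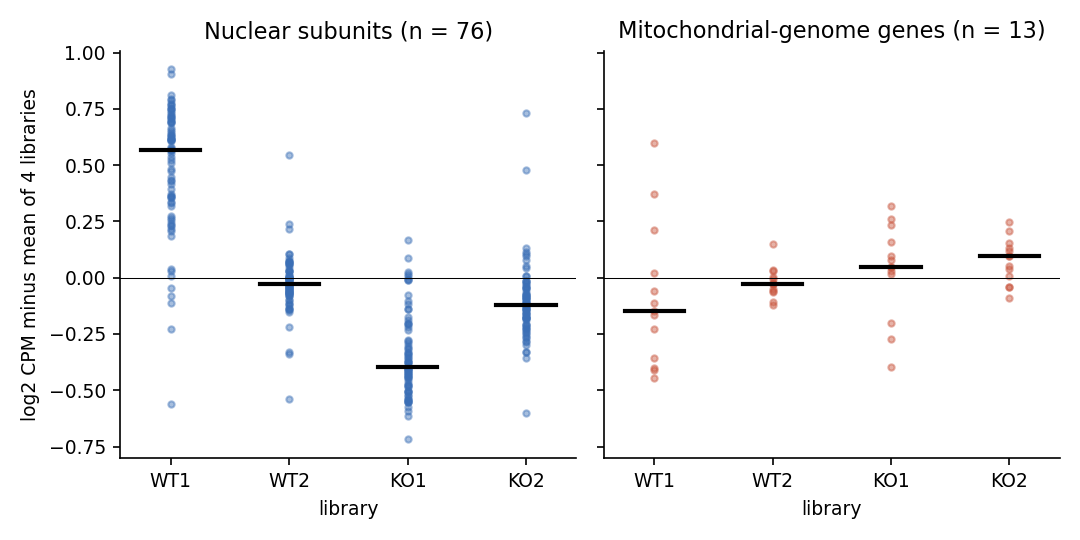
Log2 CPM of each tested subunit minus its mean over the 4 libraries (vertical axis), by library, for nuclear subunits (left) and mitochondrial-genome genes (right). Bars are medians. For nuclear subunits the medians run from 0.57 in WT1 and -0.03 in WT2 to -0.40 in KO1 and -0.12 in KO2, and for mitochondrial genes from -0.15 and -0.03 in WT to 0.05 and 0.10 in KO.

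**Figure D3:**
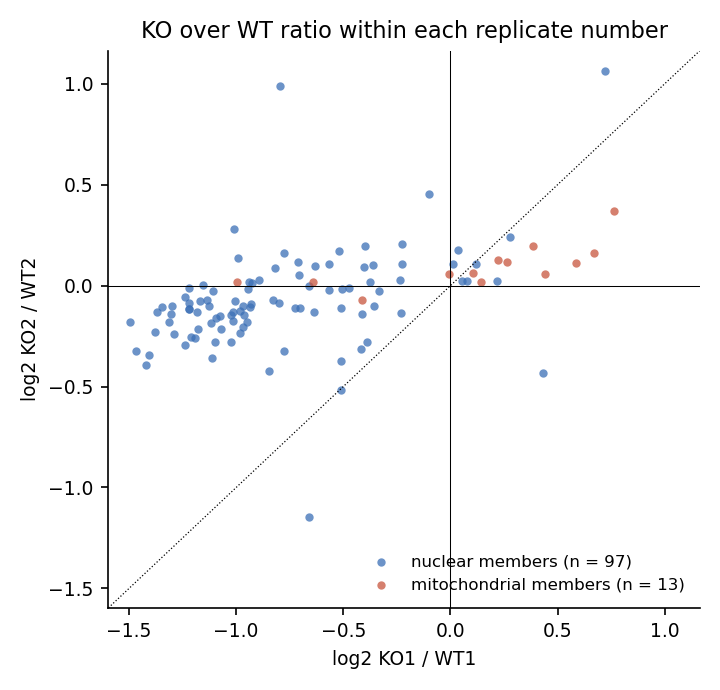
Log2 ratio of KO to WT within replicate number 2 (vertical axis) against that within number 1 (horizontal axis) for each tested member. The dotted line marks equal ratios. Most of the 97 nuclear members (blue) lie between -1.5 and 0 on the horizontal axis and near 0 on the vertical one, and 9 of 13 mitochondrial members (red) are above 0 on both.

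Complex I, the NADH dehydrogenase, had the largest number of nuclear subunits. Of 36, 34 had a log2 fold change below 0, with a median of -0.62, and 24 had both KO libraries below both WT libraries. The 29 accessory subunits had a median of -0.63 and the 7 nuclear core subunits, among them those with the flavin and iron-sulphur centres, one of -0.51. Ndufa6, an accessory subunit (chr15:82350139-82354291, minus strand, GRCm38), had the highest level per length of the nuclear subunits of complex I, with a mean of 247 FPKM over the libraries (fragments relative to gene length and library total, as deposited). Its CPM was 246 and 127 in WT and 89.1 and 101 in KO. Both KO libraries were below both WT libraries, and WT replicate 1 was far above WT replicate 2. Its log2 fold change was -0.97 ± 0.37 (SE; -0.41 without WT replicate 1), with an unadjusted p of 0.0461 and an adjusted p of 0.731 by edgeR.

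Ndufa1, an X-linked accessory subunit of complex I, had 159 and 94.8 CPM in WT and 60.1 and 74.7 CPM in KO. The groups did not overlap, and the log2 fold change was -0.91 ± 0.33 (SE; -0.49 without WT replicate 1 and -0.30 with a correction for gene length) with an adjusted p of 0.679 by edgeR. Ndufs1, the largest iron-sulphur subunit of complex I, went the other way with 86.7 and 93.7 CPM in WT and 94.2 and 101 CPM in KO. Its KO libraries were above both WT libraries by little, and its log2 fold change of 0.11 (-0.13 with a correction for gene length) had a 95% interval from -0.44 to 0.67. Ndufab1, the mitochondrial acyl carrier protein, had 14.9 and 14.2 CPM in WT and 15 and 15.3 CPM in KO, a log2 fold change of 0.06 (-0.13 with a correction for gene length). The remaining nuclear subunits of complex I ranged from -0.85 to -0.13. The 8 complex I factors, which build the complex without staying in it, were all below 0, with a median of -0.27.

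Complex II, succinate dehydrogenase, had the nuclear median nearest 0, -0.25 over its 4 subunits. Sdha, the flavoprotein that oxidises succinate (chr13:74322254-74350280, minus strand, GRCm38), had 224 and 208 CPM in WT and 232 and 212 CPM in KO. The libraries overlapped, and the log2 fold change of 0.04 (-0.17 with a correction for coding length) had a 95% interval from -0.53 to 0.61 by edgeR. Sdhb, the iron-sulphur subunit, had 139 and 103 CPM in WT and 93.9 and 102 CPM in KO, a log2 fold change of -0.31 with an interval from -0.95 to 0.34. The membrane anchors Sdhc and Sdhd had log2 fold changes of -0.23 and -0.26. For Sdhb, Sdhc and Sdhd both KO libraries were below both WT libraries, though within number 2 the log2 ratios were -0.02, -0.10 and -0.02.

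Complex III, the cytochrome bc1 complex, had a nuclear median of -0.69 over 8 subunits, 7 of them below 0. This was the lowest of the 5 complexes, but it was not so in every setting. Without WT replicate 2 and with the coding length correction complex I was lower (-0.37 against -0.35 in the latter), and with the gene length correction complexes I and V were both lower, each at -0.41 against -0.40. Uqcrq, a small accessory subunit (chr11:53427922-53430831, minus strand, GRCm38), had 210 and 239 CPM in WT and 132 and 108 CPM in KO. It was lower in KO within both numbers, by a log2 ratio of -0.66 in number 1 and -1.15 in number 2, so that it did not share the pattern of a high WT replicate 1. Its log2 fold change was -0.90 ± 0.25 (SE; -0.49 with a correction for coding length), with an unadjusted p of 0.0135 and an adjusted p of 0.452 by edgeR.

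Uqcr11, a subunit with a coding length of 168 bases, had 113 and 56.3 CPM in WT and 43.4 and 48.0 CPM in KO. Its groups did not overlap and its log2 fold change was -0.89 ± 0.38 (SE; -0.30 without WT replicate 1). Uqcrb, the nuclear subunit of complex III with the highest level per length, 140 FPKM, had 232 and 158 CPM in WT and 101 and 132 CPM in KO, a log2 fold change of -0.74 (-0.44 without WT replicate 1). Uqcrc1 and Uqcrc2, the long core proteins on the matrix side, were named after their values were seen: they had log2 fold changes of 0.05 and -0.10 and overlapping libraries.

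Complex IV, cytochrome c oxidase, had a nuclear median of -0.54 (-0.12 with a correction for coding length), with 11 of 13 tested subunits below 0. Cox8a had the highest level per length of its nuclear subunits, 511 FPKM, with 389 and 274 CPM in WT and 204 and 258 CPM in KO and a log2 fold change of -0.52 (0.015 with a correction for gene length). The regulatory subunit Cox4i1 had 768 and 426 CPM in WT and 354 and 374 CPM in KO, and its log2 fold change was -0.71 ± 0.34 (SE; -0.23 without WT replicate 1). Its CPM was above that of Cox8a in every library, over a gene length in FPKM of 2661 bases against 545. For both genes the KO libraries were below the WT libraries, with WT replicate 1 well above the other 3.

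Several subunits of complex IV exist as isoforms, a ubiquitous form and one of heart and muscle. The ubiquitous Cox6a1 had 360 and 255 CPM in WT and 203 and 243 CPM in KO, a log2 fold change of -0.47 (-0.20 without WT replicate 1). Its muscle counterpart Cox6a2 (chr7:128205435-128206387, minus strand, GRCm38) was far lower, with 3.82 and 4.45 CPM in WT and 6.33 and 9.34 CPM in KO. Both KO libraries were above both WT libraries, in both numbers. The log2 fold change of 0.92 ± 0.34 (SE; 0.61 to 1.18 with a library left out) was the highest of all members in the main fit. Its unadjusted p was 0.0389 and its adjusted p 0.682 by edgeR. In Cox7a, the ubiquitous Cox7a2 had 175 and 113 CPM in WT and 77.8 and 107 CPM in KO, a log2 fold change of -0.64 (-0.29 without WT replicate 1). The muscle form Cox7a1 had 1.97 and 1.00 CPM in WT and 1.13 and 2.03 CPM in KO and overlapped, as did Cox7a2l, a factor that joins complexes III and IV, with 345 and 234 CPM in WT and 233 and 252 CPM in KO. Ndufa4, now counted as a complex IV subunit, had 224 and 141 CPM in WT and 95.9 and 130 CPM in KO, a log2 fold change of -0.69 (-0.32 without WT replicate 1).

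The 10 complex IV factors had a median of -0.30. Cox14, which helps to assemble the mt-Co1 product into complex IV, had 84.0 and 46.3 CPM in WT and 31.4 and 35.2 CPM in KO. The groups did not overlap, and its log2 fold change was -0.97 ± 0.35 (SE; -0.48 without WT replicate 1) with an adjusted p of 0.676 by edgeR. Cox15, which makes heme A, had 18.1 and 16.4 CPM in WT and 22 and 19.3 CPM in KO, both KO libraries above both WT libraries, with a log2 fold change of 0.26 and an adjusted p of 0.949.

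Complex V, the ATP synthase, had a nuclear median of -0.40 (-0.22 with a correction for coding length), with 13 of 15 subunits below 0. The 7 stalk or membrane subunits had a median of -0.59 and the 3 c-ring genes one of -0.40. The 5 subunits of the F1 head, where ATP is made, had one of -0.19, and their range spanned those of the other parts. Atp5a1, the F1 alpha subunit, had the highest level per length of the nuclear subunits of complex V, 95.1 FPKM, with 485 and 478 CPM in WT and 496 and 541 CPM in KO. Both KO libraries were above both WT libraries, and the log2 fold change of 0.11 (-0.061 with a correction for coding length) had a 95% interval from -0.44 to 0.65. Atp5b, another F1 subunit named after its values were seen, had a higher CPM, 529.5 and 668.4 in WT and 615.9 and 680 in KO. Its FPKM was lower, 90.3, over a gene length of 6918 bases against 5271 for Atp5a1. Within F1 the range went from 0.11 down to -0.78 for Atp5e, the small epsilon subunit, named after its values were seen.

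The c-ring is a ring of identical proteins made from the 3 genes Atp5g1, Atp5g2 and Atp5g3, whose mature products are the same. Atp5g3 gave most of their RNA, with 35.5 FPKM on average against 2.10 for Atp5g1 and 1.65 for Atp5g2. It had 132 and 108 CPM in WT and 79.6 and 99.9 CPM in KO, a log2 fold change of -0.42. Atp5g1 and Atp5g2 had log2 fold changes of -0.40 and -0.28. With a correction for gene length the values of Atp5g1, Atp5g2 and Atp5g3 were -0.63, -0.19 and -0.43, with one for coding length they were -0.087, -0.0012 and -0.13, and without WT replicate 1 they were -0.16, -0.21 and -0.27. The differences between them were not tested.

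The mitochondrial genome encodes 7 subunits of complex I, 1 of complex III, 3 of complex IV and 2 of complex V. It is transcribed in long RNAs that are cut at tRNAs, and mt-Atp8 with mt-Atp6, and mt-Nd4l with mt-Nd4, share an RNA and overlap. The 13 genes made up 2.40% to 2.67% of counts in every library. Their levels per length differed more than the genotypes did. Mt-Co1 (MT:5328-6872) was highest, at 9392 and 8158 FPKM in WT and 8230 and 8234 FPKM in KO, followed by mt-Co3 at 6566 and 4813 FPKM in WT and 4913 and 5162 FPKM in KO. Mt-Co2 and mt-Atp8 came next, with means of 2270 and 2208 FPKM. Mt-Nd6, alone on the other strand among these genes, was lowest, at 8.84 and 12.8 FPKM in WT and 14.1 and 14.1 FPKM in KO. Whether the counting used strand is not given in the sources used here, so its reads and those of RNA from the opposite strand cannot be told apart.

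**Figure D4:**
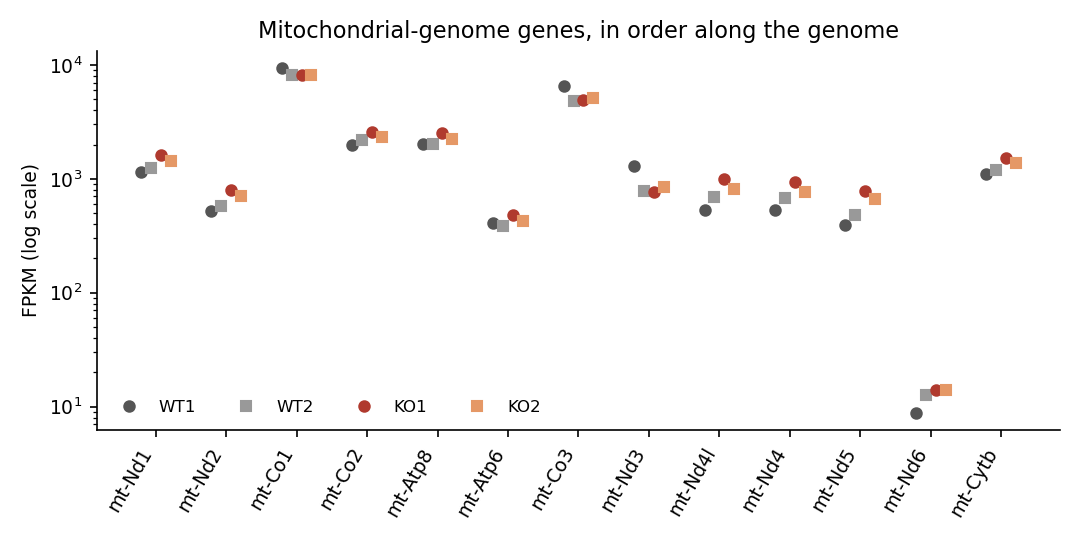
FPKM (log scale) of the 13 genes of the mitochondrial genome in each library, in their order along the genome. Symbols are single libraries. Mt-Co1 and mt-Co3 are the highest and mt-Nd6, at 8.84 to 14.1 FPKM, the lowest.

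Complex I genes of the mitochondrial genome had a median log2 fold change of 0.29. In the main fit the highest was mt-Nd5 (MT:11742-13565), with 748 and 938 CPM in WT and 1269 and 1210 CPM in KO. Both KO libraries were above both WT libraries, and the log2 fold change of 0.56 ± 0.22 (SE) had an unadjusted p of 0.0533 and an adjusted p of 0.761 by edgeR. Mt-Nd4l and mt-Nd4 had log2 fold changes of 0.40 and 0.34, mt-Nd2 one of 0.29 and mt-Nd1 one of 0.19, with no overlap between groups. Without WT replicate 1 these 4 were at 0.22, 0.17, 0.21 and 0.12, and with a correction for gene length at 1.04, 0.57, 0.62 and 0.55, none of them called. Mt-Nd6 was at 0.23 with overlap (-0.020 without WT replicate 1). Mt-Nd3 was the exception, with 475 and 291 CPM in WT and 238 and 294 CPM in KO, a log2 fold change of -0.52 (0.13 with a correction for gene length) and WT replicate 1 far above the other 3.

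Mt-Cytb, the complex III gene, had 1325 and 1437 CPM in WT and 1547 and 1566 CPM in KO, a log2 fold change of 0.17 (0.47 with a correction for gene length and 0.10 with one for coding length). In complex IV, mt-Co1 and mt-Co3 had log2 fold changes of -0.24 and -0.32 (the latter 0.11 with a correction for gene length) and mt-Co2 one of 0.08. Mt-Co1 was at -0.047 with a correction for gene length, -0.41 with one for coding length and -0.15 without WT replicate 1. The 2 complex V genes, mt-Atp8 and mt-Atp6, were at 0.08 and 0.03. With a correction for gene length mt-Co2, mt-Atp8 and mt-Atp6 were at 0.53, 0.81 and 0.49, and with one for coding length at 0.19, 0.52 and 0.15, none of them called. Since mt-Co1 and mt-Co3 hold most of the counts, the summed CPM of the 13 genes gave a log2 ratio of -0.11, opposite in sign to their median of 0.17.

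A nuclear copy of mitochondrial DNA on chromosome 1 carries near-identical pieces of 7 of these genes, and reads of one can be counted to the other. Over their aligned length the copies of mt-Atp6 (678 bases), mt-Co2 (681), mt-Co3 (783), mt-Nd4 (876) and mt-Nd4l (294) were identical to the mitochondrial gene, the copy of mt-Nd3 had 1 mismatch in 345 bases and that of mt-Co1 6 in 492 bases. The copy of mt-Atp6, Gm10925 (chr1:24613974-24614651, minus strand), held 53.9% and 53.2% of the pair's counts in WT, against 52.3% and 51.8% in KO. The copies of mt-Co2, mt-Co3, mt-Nd3 and mt-Nd4l held 11.9% to 15.1% of theirs. The copy of mt-Co1, Gm29216, held 2.69% and 2.46% of the pair's counts in WT, against 4.18% and 4.10% in KO, and its own log2 fold change was 0.46 with an adjusted p of 0.852 by edgeR. With the counts of copy and gene added, the log2 ratio of the genotype means was -0.02 for mt-Atp6, -0.22 for mt-Co1, -0.32 for mt-Co3, -0.52 for mt-Nd3, 0.34 for mt-Nd4 and 0.40 for mt-Nd4l, within 0.05 of the fit without the copies. The start of mt-Nd3 and of its copy Gm28438 are shown because the mismatch, T3C counted from the first base of the gene, is the single base by which the aligned stretches can be told apart. Capitals mark it (GENCODE, GRCm38, MT:9459-9548 plus strand and chr1:24613030-24613119 minus strand).
mt-Nd3: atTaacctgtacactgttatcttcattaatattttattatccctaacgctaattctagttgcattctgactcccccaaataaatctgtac
Gm28438: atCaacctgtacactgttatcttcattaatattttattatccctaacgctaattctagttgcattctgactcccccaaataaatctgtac

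The balance between the genomes was set out per length. Summed FPKM of the 13 mitochondrial genes was 3.57 and 4.82 times that of the nuclear subunits in WT, against 6.0 and 5.36 times in KO. Within complex I the ratio was 1.54 and 2.60 in WT, against 3.91 and 3.21 in KO. In both measures the KO libraries were above both WT libraries, and the gap between the 2 WT libraries was larger than that from WT replicate 2 to KO replicate 1 in the first measure. The gene lengths behind FPKM were near the coding length for mitochondrial genes, as with 1545 against 1542 bases for mt-Co1. For nuclear genes they could be far longer, as with 2661 against 507 bases for Cox4i1. A longer length lowers FPKM, so the size of these ratios depends on the lengths used. The ratios are a description of the 4 libraries, and no test was made on them.

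Fold change went with coding length, in members and in other genes. Nuclear subunits are short, with a median coding length of 426 bases against 1359 bases for all tested nuclear coding genes. Of the 20 nuclear subunits under 300 bases, 18 were below 0, with a median log2 fold change of -0.63. Of the 36 from 300 to 600 bases 35 were below 0 (median -0.61), of the 11 from 600 to 1200 bases all 11 were (median -0.38), and of the 9 at 1200 bases or more 4 were (median 0.04). Nuclear coding genes that were no members had medians of -0.50, -0.33, -0.10 and 0.15 in the same classes, and 81.9%, 78.2%, 60.6% and 27.0% of them were below 0. Spearman's rho between coding length and log2 fold change was 0.51 across 76 nuclear subunits and 0.49 across 11593 nuclear coding genes, which share the same 4 libraries and are no independent replicates. Within number 1 and number 2 it was 0.48 and 0.43 across the subunits, and 0.56 and 0.17 across the nuclear coding genes. With the trend of each library with coding length taken out, the median over nuclear members was -0.25, that over mitochondrial members 0.20 and that over all genes tested -0.09. With the trend with gene length taken out instead, they were -0.33, 0.55 and -0.06. With either correction, values below 0 were 87 (gene length) and 85 (coding length) among the nuclear members tested.

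**Figure D5:**
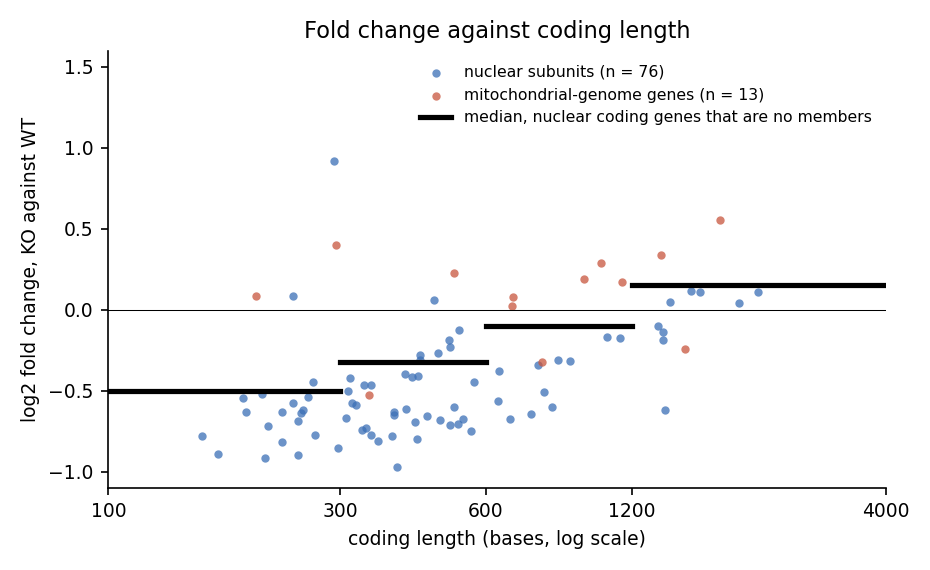
Log2 fold change, KO against WT (vertical axis), against coding length in bases (log scale) for 76 nuclear subunits (blue) and 13 mitochondrial genes (red). Black bars are the medians of nuclear coding genes that are no members in 4 length classes, which run from -0.50 to 0.15.

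Promoters of nuclear members carry sites for the factors that tie the nuclear genes together, among them NRF1, GABP of the ETS family, YY1 and SP1. RefSeq promoters of GRCm38.p6, 250 bases before to 50 after the start, were matched for 80 of 98 nuclear members. The NRF1 motif (GCGC, AT and GCGC in a row), read on both strands like the others, was found in 7 of 80, or 8.75%, against 2.45% of tested coding genes and 1.07% of all promoters in the table. With any base in place of its A it was found in 23.8%, against 12.0% and 5.19%. The YY1 motif AAGATGGC was found in 16.2% (5.54% and 3.19%), the ETS motif CCGGAAG in 27.5% (21.1% and 9.93%) and the SP1 motif GGGGCGGGG in 16.2% (25% and 12.9%). The median log2 fold change was -0.47 for the 19 members with the looser NRF1 motif, which includes the stricter, and -0.54 for the 61 without it. For the 7 with the stricter motif it was -0.37 (-0.54 for the rest), for the 13 with the SP1 motif -0.34 (-0.54), for the 22 with the ETS motif -0.60 (-0.45) and for the 13 with the YY1 motif -0.59 (-0.52). Below are the promoters of Cox6a1, which holds the full NRF1 motif, and of Sdha and Ndufa6, which hold the looser one and had log2 fold changes of 0.04 and -0.97. Capitals mark NRF1, ETS and SP1 motifs, and the windows are chr5:115348909-115349208, chr13:74350191-74350490 and chr15:82354242-82354541, all on the minus strand.
Cox6a1: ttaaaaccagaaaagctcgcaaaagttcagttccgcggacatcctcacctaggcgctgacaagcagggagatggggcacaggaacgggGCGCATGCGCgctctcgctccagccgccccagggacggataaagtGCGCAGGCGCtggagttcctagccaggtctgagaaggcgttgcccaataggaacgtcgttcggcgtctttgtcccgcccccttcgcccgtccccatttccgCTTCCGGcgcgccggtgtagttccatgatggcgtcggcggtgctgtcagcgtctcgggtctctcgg
Sdha: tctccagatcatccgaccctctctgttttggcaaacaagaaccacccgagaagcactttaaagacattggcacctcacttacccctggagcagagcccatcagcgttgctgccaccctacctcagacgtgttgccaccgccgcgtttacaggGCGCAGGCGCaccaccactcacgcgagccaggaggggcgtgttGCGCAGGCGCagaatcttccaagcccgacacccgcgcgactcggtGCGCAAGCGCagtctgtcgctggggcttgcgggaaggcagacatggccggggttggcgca
Ndufa6: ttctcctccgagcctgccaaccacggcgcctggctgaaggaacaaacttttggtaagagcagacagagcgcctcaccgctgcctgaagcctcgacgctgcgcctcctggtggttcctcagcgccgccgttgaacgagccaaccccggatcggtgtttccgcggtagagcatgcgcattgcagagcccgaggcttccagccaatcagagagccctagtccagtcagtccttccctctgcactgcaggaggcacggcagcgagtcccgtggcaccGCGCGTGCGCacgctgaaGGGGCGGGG

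The other genes of mitochondrial energy metabolism were read in lists, and 0 of their genes were called by edgeR's quasi-likelihood test with genotype as the only term. Mitochondrial ribosomal proteins, which translate the 13 mitochondrial mRNAs, were below 0 for 74 of 77 tested genes, with a median of -0.41. Number 1 gave them a median log2 ratio of -0.75 and number 2 one of -0.087, and WT replicate 1 was the highest library for 60 of them. Assembly factors outside the symbol rule were below 0 for 25 of 32 tested, with a median of -0.30. Lyrm7, a chaperone that inserts the iron-sulphur protein Uqcrfs1 into complex III, had the lowest value of that list, counted 68 and 65 times in WT libraries and 17 and 15 times in KO libraries. Its libraries did not overlap and its log2 fold change was -2.30 with an adjusted p of 0.250, and it was named after its values were seen. Uqcrfs1, also named after its values were seen, had 224 and 161 CPM in WT and 111 and 143 CPM in KO, a log2 fold change of -0.60. Its log2 ratios were -1.01 within number 1 and -0.17 within number 2, against -2.17 and -2.38 for Lyrm7. A link between these genes was not tested.

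All 6 mitochondrial carriers, such as the ADP/ATP exchangers and Vdac pores, were below 0, with a median of -0.29. Number 1 gave these carriers a median log2 ratio of -0.49 and number 2 one of -0.066, and 4 of them were lower in both numbers. The 17 genes of the tricarboxylic acid cycle and pyruvate dehydrogenase split into 8 above and 9 below 0, with a median of -0.04. The 17 tested factors that copy, transcribe and process mitochondrial DNA and RNA or, like Tufm and Gfm1, serve its translation, split into 9 above and 8 below, with a median of 0.04. Among them Lrpprc, which stabilises mitochondrial mRNAs, had a log2 fold change of 0.34, and its partner Slirp, a short protein, one of -0.76 (both named after their values were seen). The 8 regulators, among them Nrf1, Gabpa, Yy1 and Ppargc1a, had a median of 0.06. The 7 listed electron carriers and feeding enzymes had one of -0.25, with -0.45 within number 1 and -0.068 within number 2. That list holds cytochrome c (Cycs) and also Cyc1, cytochrome c1, a subunit of complex III that the symbol rule left out of the 8 above. The 15 proliferation genes listed had a median of 0.78, with 14 above 0. Pcna, the exception, had 438 and 271 CPM in WT, against 260 and 245 in KO, and the summed CPM of the list gave a log2 ratio of -0.068.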

How the data were processed

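RNA of 4 macrophage libraries was sequenced (VAHTS Universal V6 kit, Illumina NovaSeq). Per the study's methods and the submitters' processing notes, the authors filtered reads with Seqtk, aligned them with HISAT2 2.0.4 and counted fragments with StringTie 1.3.3b. The authors deposited raw counts and FPKM for 34745 genes. The notes name mm39, but 27776 of 34344 gene IDs shared with GENCODE M21 (GRCm38) had the same start and end, so coordinates are given as GRCm38. FPKM carries the library total only, whereas CPM here use TMM-scaled totals.

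Counts were tested with edgeR 4.0.16 (quasi-likelihood, TMM, filterByExpr with a minimum count of 10, R 4.3.3), genotype as the only term, over all genes, and adjusted by Benjamini-Hochberg. Library totals of 16724241 to 19747909 limit low genes by counting error. The fit was tested on simulated data with known fold changes. Within-number ratios used a pseudocount of 0.5. DESeq2 1.42.0, other scalings and filters, length corrections (loess, span 0.5) and leaving out each library were tried. Coding length is that of the principal GENCODE M21 transcript.

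The members and gene lists were chosen with earlier results of these data known. Named were the 13 mitochondrial genes, Sdha to Sdhd, the isoform groups of complexes IV and V, the nuclear subunit of highest FPKM in complexes I, III, IV and V, and up to 5 higher and 5 lower nuclear members of largest fold change without overlap. Others are said to be named after their values were seen. Counts of library pairs differed by a chi-square per degree of freedom of 22.7 to 125, so no library was taken as a repeat of another.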

Additional observations from a re-analysis of the deposited data

How the results depend on the processing

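No member was called in the main fit or with DESeq2 size factors, other filters, no minimum fold, library totals alone, totals without mitochondrial genes, either length correction without the block, DESeq2's Wald test, edgeR's exact test or any library left out. Genes called were 0 in the main fit, 181 with DESeq2's Wald test, 174 with edgeR's exact test, 1 with library totals alone (chosen, like the coding length corrections, after seeing the data) and 0 to 1 with a library left out. Same-numbered libraries deviated together (correlation 0.69), but with only 2 numbers and no label for them, pairing was not established. With a replicate block 664 genes were called, and 18 members had an adjusted p under 0.05 (7.84% of all genes did), 17 lower and 1 higher, with 0 over the fold limit. Outside the members, the block called Lyrm7 among the assembly factors, Mrps21 among the mitochondrial ribosomal proteins and 5 of the 15 proliferation genes (Ccna2, Ccnb1, Mki67, Rrm2 and Top2a), and among markers of cell types all 6 stromal genes, S100a9, Itgam (ENSMUSG00000108596), Ms4a1 of B cells and Hba-a1 of erythroid cells. The replicate block with length correction called 319 genes and the block with coding length correction 467, with 1 member, Cox6a2, called in each. At an adjusted p under 0.05 without the fold limit, the lower members went from 17 to 0 and 1 (Ndufv3) under these, and the higher ones were Cox6a2 in both and mt-Nd4l in the latter.

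The median over mitochondrial members was 0.55 with the length correction, 0.55 with that and the block, 0.33 with library totals alone, and 0.069 to 0.20 with a library left out. Complex II was at -0.095 with the coding length correction, -0.091 with that and the block, -0.097 with library totals, and -0.40 to -0.096 with a library left out. Complex III was at -0.40 and -0.38 with the length correction without and with the block, -0.35 and -0.34 with the coding length correction, and -0.89 to -0.34 with a library left out, complex IV at -0.19, -0.19, -0.12 and -0.11 under the same 4 corrections. Complex I ran from -0.94 to -0.24 with a library left out and mitochondrial minus nuclear members from 0.30 to 1.00. WT replicate 1 was the library whose loss brought the nuclear medians nearest 0, and the cause was not tested. The medians over nuclear members were below 0 and over mitochondrial members above 0 in every setting where they were taken. They were not taken for DESeq2's Wald test and edgeR's exact test.

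None of the named genes that changed sign was called. With the length correction, without and with the block, values were -0.0085 and -0.0082 for Atp5a1, 0.062 and 0.072 for Cox7a2l, 0.015 and 0.017 for Cox8a, -0.13 and -0.13 for Ndufab1, -0.13 and -0.13 for Ndufs1, -0.083 and -0.081 for Sdha, 0.11 and 0.11 for mt-Co3, 0.13 and 0.14 for mt-Nd3, and with the block 0.00060 for Sdhd. With the coding length correction, without and with the block, they were -0.061 and -0.060 for Atp5a1, 0.12 and 0.12 for Cox7a2l, -0.13 and -0.13 for Ndufs1 and -0.17 and -0.17 for Sdha. With DESeq2 size factors and DESeq2's test, Sdha was at -0.00065 and -0.00066 and mt-Atp6 at -0.015 and -0.015. With a library left out, Cox7a1 ran from -0.41 to 0.65, Cox7a2l from -0.54 to 0.050, Ndufab1 from -0.011 to 0.096, Sdha from -0.045 to 0.098, mt-Atp6 from -0.044 to 0.062 and mt-Nd6 from -0.020 to 0.49.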
